A study of Mus musculus and Homo sapiens with 22 samples.

Results

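The 81 mouse genes described here encode the proteins of the cytosolic ribosome. They were taken from the 56196 genes of the count files as protein-coding genes whose symbol is Rpl or Rps followed by a number, with an optional a, l, x, y or p, together with Rplp0, Rplp1, Rplp2, Rpsa and Fau. Genes of the S6 kinase family (Rps6k) and pseudogenes were left out. By this rule 32 genes belonged to the small (40S) subunit and 49 to the large (60S) subunit, and the same rule in upper case gave 82 human genes. N6-methyladenosine (m6A) had been mapped by miCLIP2, an antibody crosslinking method that reads the modified base at the point where reverse transcription stops, and the sites had been predicted from its peaks by the classifier m6Aboost. Site lists came from mouse embryonic stem cells (mESCs) of the wild type (WT), grown with serum and LIF (3 replicates pooled), from HEK293T cells, a human embryonic kidney line (4 replicates pooled), and from purchased mouse heart RNA at inputs of 1 µg, 300 ng, 100 ng and 50 ng (1 library each). RNA-seq counts came from 3 WT and 3 Mettl3 knockout (KO) mESC libraries, which lack the catalytic subunit of the m6A methyltransferase. Neither the number of KO clones nor the strain, age or sex of the heart donors was given in the sources used here.

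Every ribosome carries a nearly fixed set of these proteins, with small-subunit proteins around the decoding site and large-subunit proteins around the peptidyl transferase centre and the exit tunnel. Their mRNAs are short, abundant and built from many short exons, and most begin with a pyrimidine tract, the terminal oligopyrimidine (TOP) element, through which mTOR and LARP1 control their translation. m6A is placed by the Mettl3 and Mettl14 complex mainly at DRACH motifs (D is A, G or T, R is A or G, H is A, C or T), and exon junction complexes are known to keep most short internal exons free of it. A minority of ribosomal protein genes have duplicates that are used in particular tissues, such as Rpl3l in striated muscle and Rpl10l in male germ cells.

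Predicted m6A sites were present in 26 of the 81 genes in mESCs, in 17 in heart at 1 µg, and in 43 of the 82 human genes in HEK293T cells. 30 mouse genes had a site in at least 1 of the 5 mouse lists and 51 had none. The 21-base genomic windows below show the 7 positions called in 3 or more mouse lists, and the Rps6 site, called in mESCs and in heart at 300 ng, as the coding site with the highest mESC score. They are written 5′ to 3′ on the strand of the gene, on GRCm38, and the capitals mark the 5 bases centred on the predicted A.
Rps24 (chr14:24493420-24493440): agcgaaagGAACGcaagaaca
Rpl41, 5′ UTR (chr10:128548961-128548981): ctctctagAGACTcctgcgcc
Rpl41, 3′ UTR (chr10:128548305-128548325): aagctatcGGACTgtgtgctg
Rpl39 (chrX:37082603-37082623): aaacctggAGACTcttcgtgt
Rpl12 (chr2:32962635-32962655): ttacagtgAAACTgaccatcc
Rpl10a (chr17:28329017-28329037): agaaggacAAACGtttctcgg
Rps9 (chr7:3704646-3704666): gagagtatGGACTccggaaca
Rps6 (chr4:86856177-86856197): tgcattgtGGACGctaatctc
Rps24, a small-subunit protein, held the position found in all 5 mouse lists. It lies 72 nt before the stop codon in coding exon 4 of 5, and its GAACG is not a DRACH motif. The window of the Rpl41 5′ UTR site includes intron bases, since the site lies 2 nt from a junction. Rps24, Rpl10a and Rps6 are the genes of this set whose site shown is outside DRACH.

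A further set of windows is shown because the same stretch was called in mouse and human cells. A mouse site was matched to a HEK293T site in the gene of the same name when the 2 windows differed at no more than 6 of 21 positions. 6 of the 41 mESC sites, in 5 genes, had such a match, and 5 of the 6 lay in coding sequence. The human windows are on GRCh38.
Rpl11, mouse (chr4:136051171-136051191): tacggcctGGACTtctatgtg
RPL11, human (chr1:23694771-23694791): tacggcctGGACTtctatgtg
Rpl11, mouse, second site (chr4:136052618-136052638): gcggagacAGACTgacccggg
RPL11, human, second site (chr1:23692688-23692708): gtggagacAGACTgacgcgag
Rps24, mouse (chr14:24492097-24492117): ctaaacacAGACTggcaagag
RPS24, human (chr10:78035701-78035721): ccaaacatAGACTtgcaagag
Rpl13a, mouse, 3′ UTR (chr7:45125924-45125944): cccaataaAGACTgtttgcct
RPL13A, human, 3′ UTR (chr19:49491817-49491837): cccaataaAGACTgttaattc
The Rpl11 window 148 nt before the stop codon had 0 differences between the species, and it also carried a site in heart at 1 µg. The second Rpl11 window, 438 nt before the stop codon, differed at 3 positions, and the window of Rps24 exon 3 also at 3. The Rpl13a pair, 15 nt after the stop codon in both species, differed at 5 positions, and the mouse site lies in an exon shared with another gene. The other matched windows were in Rpl3 (4 differences) and Rpl9 (2 differences).

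**Figure D1:**
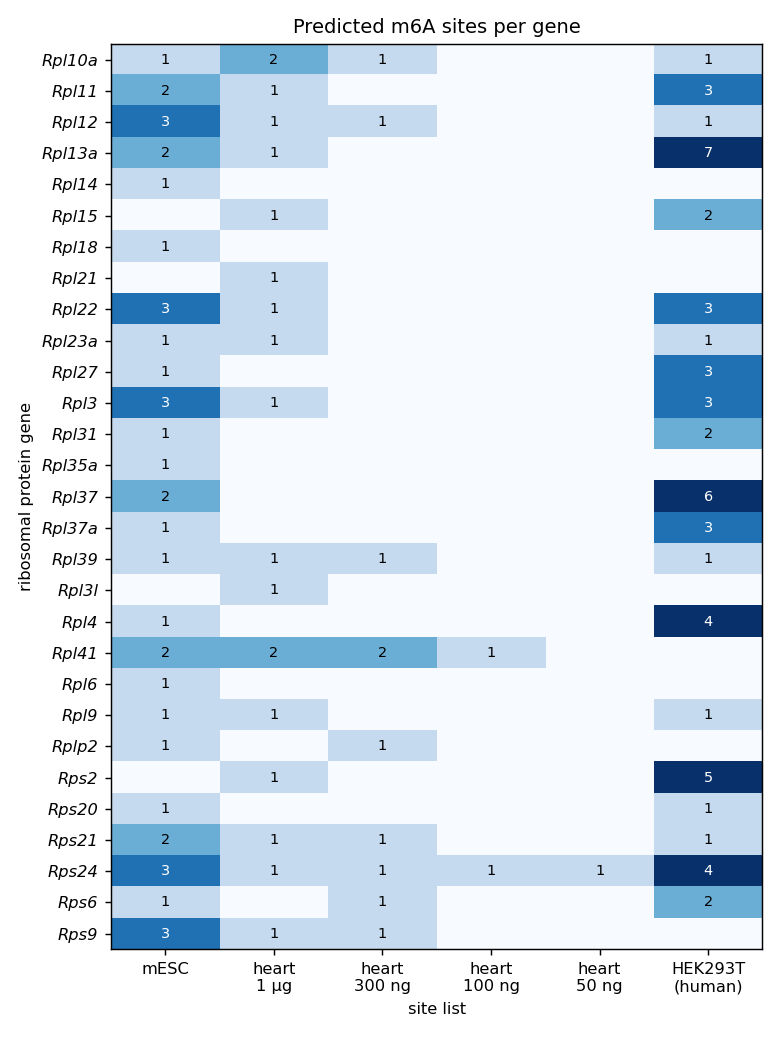
Number of predicted m6A sites (cells) in 29 of the 30 ribosomal protein genes with a site in any mouse list (rows), for each site list (columns). HEK293T counts are of the human gene of the same name, colour deepens up to 4 sites, and Rps24 is the only gene with a site in every column.

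In mESCs the 26 genes made up 32.1% of the 81 (Wilson 95% interval 22.9% to 42.9%, counting error only). Of the 13361 other protein-coding genes tested by RNA-seq, 48.5% had a site. Of them 12219 were at or above the lowest ribosomal protein gene (Rpl24, 0.763 CPM, the count scaled by normalised library size), and 53% had a site. This cutoff left out few genes. Among the 747 at or above the 10th percentile of the ribosomal protein genes (192 CPM) the share was 86.1%. CPM is not divided by mRNA length, so these groups are not matched in level per length. The ribosomal protein genes took 5.45 ± 0.962% of gene counts in WT (SD, n = 3), and 41 of 25456 sites, or 0.161%. In heart at 1 µg, 17 of the 81 genes (interval 13.5% to 31.1%) had a site against 38.4% of other protein-coding genes. In HEK293T 52.4% of the 82 genes (interval 41.8% to 62.9%) had a site against 36.4%. The heart and HEK293T shares are over all protein-coding genes, expressed or not, and over all of them the mESC share of other genes was 30.1%, so the order in mESCs depended on the genes compared. With only the higher-scoring part of each list, the HEK293T shares were 17.07% of the 82 genes and 29.67% of the others, so the order there turned with the score. No RNA-seq of heart or HEK293T cells was used here, so those shares could not be set beside expression, and no test was made because each list holds a single call per site. The authors kept only uniquely mapping miCLIP2 reads, so sites in stretches shared with pseudogenes may be missing from these lists. How far this bears on the shares was not tested.

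The mESC sites with the highest scores lay in genes of both subunits. The m6Aboost score, which runs from 0.5 to 1 in these lists, was highest at the 3′ UTR site of Rpl41 (0.961), the gene of a very short basic peptide of the large subunit. It was followed by the 3′ UTR site of Rpl13a (0.918), whose protein is also known from the interferon-controlled GAIT complex. Like the other mESC site of Rpl13a, it lies in an exon shared with another gene. Coding-sequence sites with high scores were in Rps6 (0.876), the S6 kinase substrate of the small subunit, in Rpl3 (0.863), which lies near the peptidyl transferase centre, and in Rps24 exon 3 (0.863). The median score of the 41 sites was 0.650, against 0.745 over the whole list, and in HEK293T it was 0.613 for 115 sites against 0.715. The score measures the confidence of the prediction and is not the methylated fraction.

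The other mESC sites were spread thinly. 16 of the 26 genes had 1 site, and none had more than 3. Rpl3, Rpl12, Rpl22, Rps9 and Rps24 had 3 each, and Rpl11, Rpl13a, Rpl37, Rpl41 and Rps21 had 2 each. Genes with 1 site included Rpl4, Rpl6, Rpl9, Rpl10a, Rpl14, Rpl18, Rpl23a, Rpl27, Rpl31, Rpl35a, Rpl37a, Rpl39, Rplp2, Rps6 and Rps20. 26 sites lay in coding sequence, 10 in the 3′ UTR and 5 in the 5′ UTR. The 5′ UTR site of Rpl37a lies near the annotated start, in a first exon of 34 nt and 25 nt from its junction. At transcript starts the study reports signal that did not respond to the KO. It likely reflected m6Am, a related cap modification that the antibody also binds. Whether this bears on the Rpl37a site was not tested. 36 of the 41 sites (87.8%, interval 74.5% to 94.7%) were at DRACH, against 92.9% of the whole list, and the 5 others were in Rps24, Rps6, Rps21, Rpl10a and Rpl37.

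The sites of these genes lay close to splice junctions. In the longest coding transcript, 80.5% of the 41 mESC sites were under 100 nt from the nearest junction, against 11.95% of 24647 sites in other protein-coding genes. The median distance was 39 nt against 337 nt, and the exon holding the site had a median length of 136 nt against 1570 nt. In heart at 1 µg, 70.6% of 17 sites were that close to a junction against 8.67%, and in HEK293T 63.0% of 100 sites against 11.4%. All 3 lists therefore showed the same order.

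The structure of the mRNAs differed too. The median ribosomal protein mRNA was 914 nt long with 5 exons, a last exon of 221 nt and 17 DRACH motifs. Other protein-coding genes had medians of 2691 nt, 7 exons, 1279 nt and 54 motifs. Of the internal exons, 4.85% of 268 were longer than 200 nt against 13.5%. The share of DRACH motifs under 100 nt from a junction was 51.6% against 37.3%, which is a smaller gap than that between the sites. The share of motifs with a site was therefore taken within each class of position. The 747 highly expressed genes had medians of 3716 nt, 14 exons and 74 motifs, with 49.3% of their motifs under 100 nt from a junction.

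Among motifs under 100 nt from a junction, 28 of 843 had an mESC site in the ribosomal protein genes, or 3.32% (Wilson 95% interval 2.31% to 4.76%). In other protein-coding genes the share was 0.516% (0.497% to 0.535%), and in the 747 highly expressed genes it was 1.79% (1.65% to 1.93%). Among motifs at 100 nt or more the order turned. There 8 of 790 motifs had a site in the ribosomal protein genes, or 1.01% (0.514% to 1.99%), against 2.21% (2.18% to 2.24%) in other genes and 6.97% (6.71% to 7.23%) in the highly expressed ones.

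HEK293T showed the same crossing, with 6.09% (4.64% to 7.97%) against 0.683% (0.661% to 0.706%) near junctions and 1.92% (32 of 1667 motifs) against 2.87% (2.84% to 2.91%) away from them. In heart at 1 µg the shares near junctions were 1.19% (0.646% to 2.17%) and 0.645% (0.624% to 0.667%), and their intervals overlapped. Away from junctions they were 0.633% (0.271% to 1.47%) and 3.98% (3.94% to 4.02%). The intervals cover counting error only, since motifs of a gene share its mRNA level. Motifs were counted in the longest annotated coding transcript, which had 5179 nt for Rps15a and 3706 nt for Rps20. In RPL37 its last exon had 7312 nt. Whether such long forms are expressed here is unknown, and the shares away from junctions were not tested in other transcripts. Peaks in abundant mRNAs are more readily detected, and the part of mRNA level in these shares was not tested. The highly expressed genes were chosen by CPM without division by length. They are therefore not matched to the shorter ribosomal protein mRNAs in level per length.

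**Figure D2:**
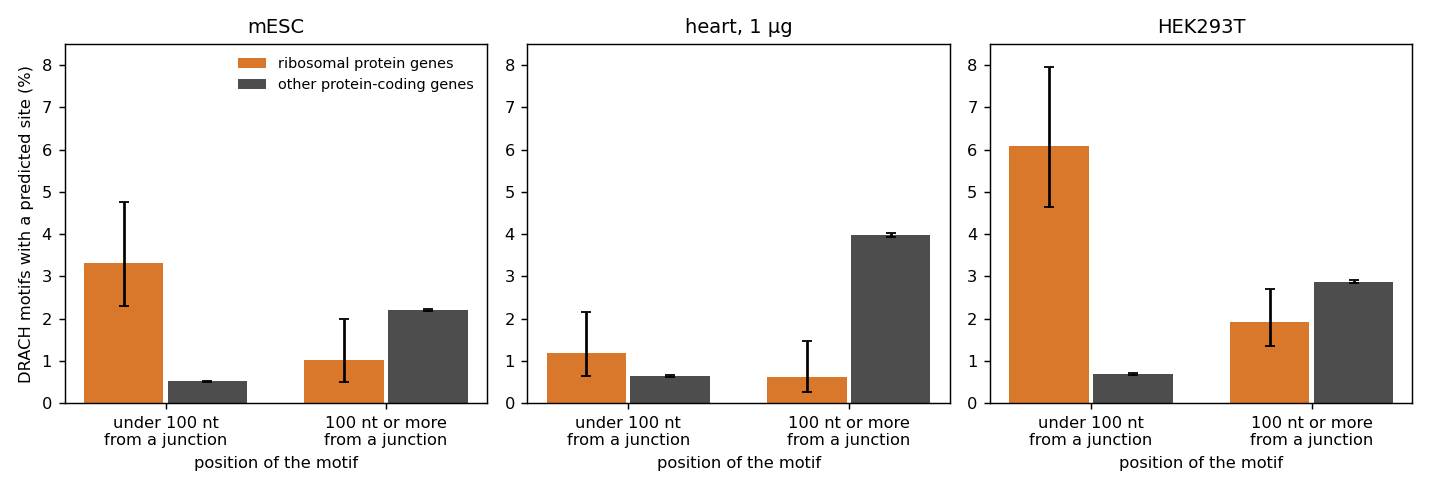
Percent of DRACH motifs with a predicted m6A site (vertical axis) under 100 nt and at 100 nt or more from a splice junction, in ribosomal protein genes (orange) and other protein-coding genes (grey), with Wilson 95% intervals. In mESC and HEK293T the orange bar is the higher near junctions and the lower away from them.

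By exon class, the share was higher than in other genes in short internal exons. In mESCs 20 of 573 motifs in internal exons of up to 200 nt had a site (3.49%, 2.27% to 5.33%), against 0.209% (0.195% to 0.225%) in other genes and 1.02% (0.903% to 1.15%) in highly expressed ones. In last exons 12 of 778 motifs had a site (1.54%, 0.884% to 2.68%), against 1.98% and 6.12%. In HEK293T the short internal exons gave 6.52% (4.75% to 8.90%) against 0.309% (0.291% to 0.328%), and the last exons 2.06% against 2.59%. Internal exons over 200 nt were higher there too, with 6 of 52 motifs (11.5%, 5.40% to 22.97%) against 3.09% (3.01% to 3.17%), while in mESCs they had 1 of 91. Mitochondrial ribosomal protein genes, whose proteins serve the separate ribosome of the organelle, had sites in 66.7% of 75 genes and in 1.27% (0.712% to 2.26%) of motifs near junctions.

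Heart RNA gave fewer sites as the input fell. The 81 genes had 19 sites in 17 genes at 1 µg, 10 in 9 genes with 300 ng, 2 with 100 ng and 1 with 50 ng. The whole lists held 46421, 8845, 1112 and 248 sites, of which these were 0.0409%, 0.113%, 0.180% and 0.403%. Of these, 8 of the 10 sites with 300 ng, both sites of the 100 ng list (Rpl41 5′ UTR and Rps24) and the only one of the 50 ng list (Rps24) were in the 1 µg list. 11 of the 19 sites at 1 µg were also in the mESC list. Over all mouse lists 49 positions were called in these genes, and 13 of them, in 12 genes, were called in mESCs and in heart. Each input is a single library, so the spread between libraries is unknown. The study reports truncation events that range widely over these libraries, and the part of depth in these numbers was not tested.

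The striated muscle duplicate Rpl3l had the highest heart score of the 81 genes at 1 µg. Its site is shown for that score, and no other list held it.
Rpl3l (chr17:24728495-24728515): accgacccGGACTcagtgagt
The score in the heart lists has no stated scale, and this site had 94.2 where the 19 sites ranged from 1.18 to 94.2. The site lies in coding exon 2 of 10, 4 nt from the junction. In mESCs Rpl3l had 36, 60 and 69 counts in WT, and its site was absent from the mESC list. Its parent Rpl3 had 33575, 35244 and 28060 counts, with 3 sites in mESCs and 1 in heart. Of 8 heart muscle genes 5 had sites in the 1 µg list, with 195 in Ttn, 23 in Ryr2, 2 in Tnnt2 and 1 each in Myh6 and Mybpc3. All 10 fibroblast markers and 2 of 10 mESC markers also had sites in heart, so these counts do not identify the tissue.

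In HEK293T cells the sites were concentrated in a few genes. RPL28 had 11, RPL13 10, RPL13A 7, RPL37 6, and RPS2 and RPS29 5 each, while 16 of the 43 genes had 1. The highest score, 0.946, was reached in RPL37 and in RPS29, in each case in the long last exon (7312 and 6870 nt) of the longest annotated coding transcript. All 5 sites of RPS29 and 3 of the 5 of RPS2 lay on exons shared with another gene. 19 genes had sites in mESCs and in HEK293T, which is 73.1% of the genes with mESC sites and 44.2% of those with HEK293T sites. 24 had sites in HEK293T alone and 31 in neither. Rpl41, with the highest mESC score, had no site in the human list.

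The RNA-seq comparison asked how the levels of these mRNAs differed in cells without Mettl3. Reads counted in genes numbered between 22746733 and 27254245 per library. Mettl3 itself had 560, 698 and 612 counts in WT against 462, 669 and 457 in KO. In CPM it was at 26.4, 26.6 and 28.9 against 18.4, 22.6 and 16.9, so every KO library was below every WT library, with most of the mRNA still present. KO stood at −0.50 ± 0.14 (SE) relative to WT on the log2 scale, at an adjusted p of 0.0134 (edgeR's quasi-likelihood test, adjusted after Benjamini and Hochberg over all genes tested, as throughout) and of 0.00281 when replicate numbers were blocked, and without KO 2 it was called. The direction goes with the label, and the part of the transcript that the KO removes was not given in the sources used here. All 10 mESC marker genes were above 1 CPM in every library and summed to between 4464 and 4856 CPM in WT and between 3200 and 3280 in KO. They did not move together, with Dppa5a at 773 to 1086 against 284 to 313 CPM and Esrrb at 494 to 566 against 675 to 726 CPM. Of 10 fibroblast (feeder) markers 3 were above 1 CPM in every library. All 10 summed to between 11.6 and 16.9 CPM in WT and between 16.5 and 18.1 in KO. Thy1 was at 2.1 to 3.1 CPM in WT against 5.6 to 6.7 in KO. Pdgfrb was at 6.5 to 8.6 CPM in WT against 3.8 to 4.5 in KO, the opposite direction. Reads in no annotated feature made up 18.9% to 22.6% of WT reads and 17.6% to 18.2% of KO reads, without overlap. The part of these differences in the results below was not tested. Nothing in the labels says that the replicates were separate cultures. The study calls the mESC miCLIP2 replicates biological and the RNA-seq matched to the same samples, and does not say whether they were separate cultures. The p-values therefore measure the spread between these libraries.

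Most of the mRNAs had a lower mean in KO, and few passed the test. The median log2 fold change was −0.32 (interquartile range −0.44 to −0.19), a difference of −19.7%, against −0.017 (−0.43 to 0.50) over the 15731 genes tested. 74 of the 81 genes (91.4%) had a negative value, against 51.2% of all genes. 16 genes (19.8%) were called at an adjusted p of at most 0.01, and 29.7% of all genes were. 15 of them (18.5%) fell, where 12.6% of all genes fell, and 1 (Rpl10l) rose, where 17.1% of all genes rose. Blocking on replicate number, 35 genes (43.2%) were called, 33 of them lower, beside 43.5% of all genes. The count also depended on single libraries, with 33 genes called without WT 3, 7 without WT 1, 7 without KO 1, 8 without KO 2 and 5 without KO 3. The shares of all genes called without these libraries are not given here, so the changes cannot be read as particular to this family. In bulk RNA less RNA per cell and fewer cells of a type cannot be told apart.

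**Figure D3:**
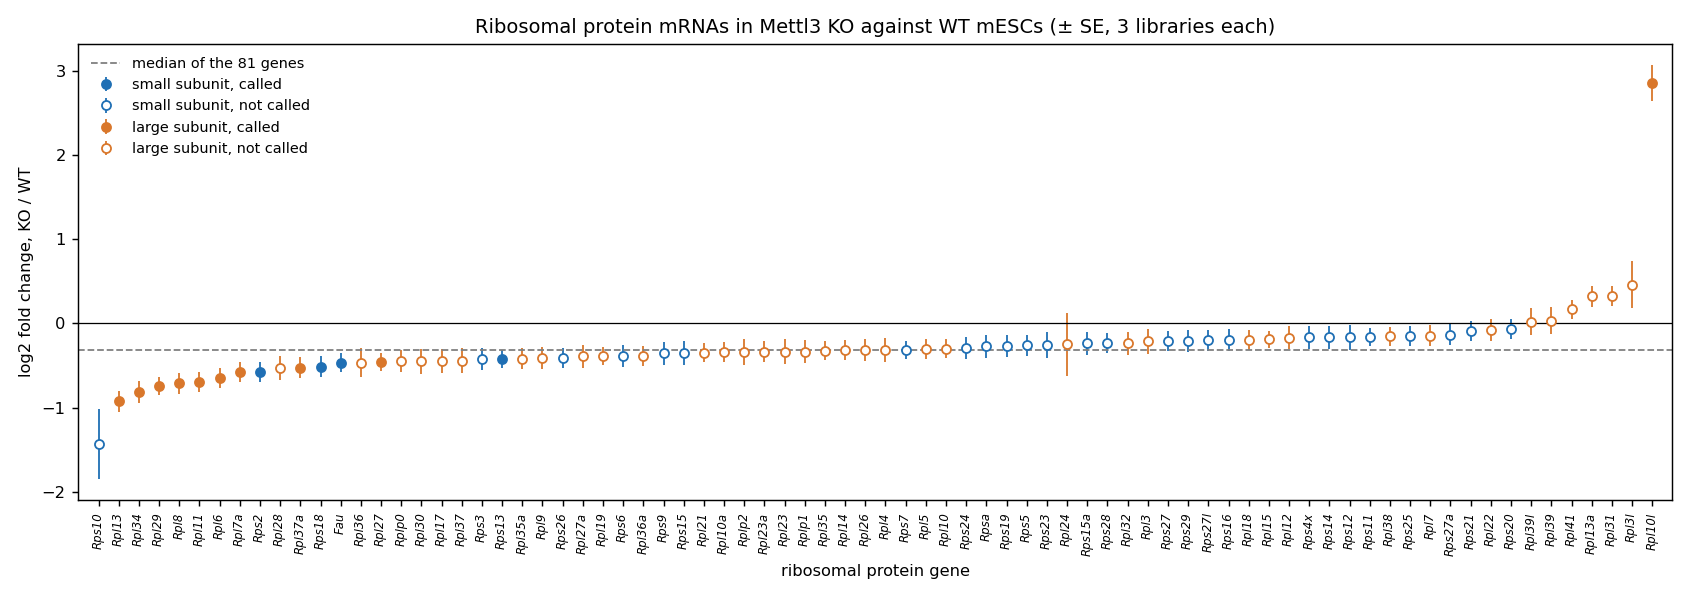
Log2 fold change of KO over WT with its SE (vertical axis) for 78 of the 81 ribosomal protein genes (horizontal axis), by subunit and by whether edgeR's adjusted p was at most 0.01 (filled). The median of all 81 (dashed) is −0.32, and Rpl10l at 2.86 stands far above the others.

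The WT libraries differed among themselves in these genes. Each gene's log2(CPM + 0.5) was set against its own mean over the 6 libraries. The median over the 81 genes was 0.22 in WT 1, 0.30 in WT 2 and −0.022 in WT 3, and −0.11, −0.18 and −0.16 in KO 1, KO 2 and KO 3. WT 3 was thus nearer to the KO libraries than to WT 2, and it was the lowest WT library for 74 of the 81 genes. The medians over all genes tested lay between −0.012 and 0.010. For 47 of the 81 genes (58.0%) every KO library was below every WT library, where 26.9% of all genes showed this order. Counting either order, 50 genes (61.7%) did not overlap, where 56.1% of all genes did not.

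The share of gene counts taken by the 81 genes was 5.47%, 6.40% and 4.48% in WT and 4.69%, 4.78% and 4.52% in KO. WT 3 had the lowest share of all 6 libraries, and the groups overlapped. The means were 5.45 ± 0.962% and 4.66 ± 0.131% (SD, n = 3 each), and the difference of −0.784 percentage points was within the spread of the WT libraries (two-sided exact permutation test, p = 0.4, where 0.1 is the smallest p that 3 against 3 libraries allow). Without WT 3 the difference was −1.27 and without WT 2 it was −0.308. These shares are of raw counts, whereas CPM uses normalised library sizes.

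**Figure D4:**
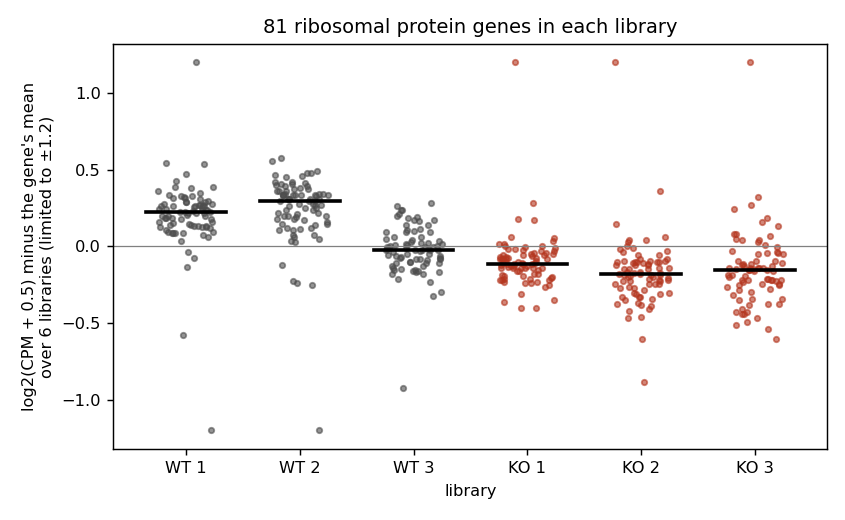
Log2(CPM + 0.5) of each ribosomal protein gene minus its mean over the 6 libraries (vertical axis, points drawn no further than ±1.2) for each library (horizontal axis, WT grey, KO red). Black bars are medians over the 81 genes, from 0.30 in WT 2 to −0.18 in KO 2, with WT 3 at −0.022.

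The medians of both subunits were below 0. The median log2 fold change of the 32 small-subunit genes was −0.26, with all 32 below 0 and 5 called lower. For the 49 large-subunit genes it was −0.34, with 42 below 0 and 10 called lower, where 12.6% of all genes were called lower. The 7 genes above 0 were all of the large subunit, and the difference between the subunits was not tested.

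Rpl13, a structural protein of the large subunit, fell most among the called genes. Its counts were 17249, 22039 and 14274 in WT against 10666, 12056 and 10672 in KO. The KO libraries were all below the WT libraries. It fell by 0.93 ± 0.12 (SE) on the log2 scale (adjusted p = 0.000246, edgeR), and the mean level was 776 ± 88.8 CPM in WT against 409 ± 15.2 CPM in KO. Rpl13 lies on chromosome 8. The 829 tested genes of chromosome 8 had a median of −0.44, and whether the chromosome bears on the value of Rpl13 was not tested. Without the genes of that chromosome 13 of 79 genes were called lower and the median stayed at −0.32.

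Rpl34, also of the large subunit, had 9865, 11031 and 8234 counts in WT against 6071, 6228 and 7436 in KO. The groups did not overlap, and the gene fell by 0.81 ± 0.13 (adjusted p = 0.000707, edgeR). Rpl29, a small basic protein of the large subunit, had 2831, 3767 and 2542 counts in WT against 1993, 2479 and 1998 in KO. In CPM the groups again did not overlap, with values of 120 to 143 in WT and 73.8 to 83.7 in KO, and the log2 fold change was −0.75 ± 0.11 (adjusted p = 0.000414, edgeR). Rpl8, part of the peptidyl transferase centre, was at 1646 to 1933 CPM in WT against 1039 to 1189 CPM in KO (−0.71 ± 0.13).

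Rpl11 and Rpl5 form with 5S rRNA the particle that binds Mdm2, and like the small-subunit gene Rps19 they are mutated in Diamond-Blackfan anaemia. Rpl11 was at 721, 762 and 628 CPM in WT against 469, 425 and 410 CPM in KO. The groups were well apart, and it fell by 0.69 ± 0.12 on the log2 scale (adjusted p = 0.00117, edgeR). Rpl5 was at 890, 892 and 739 CPM in WT against 684, 665 and 696 CPM in KO, with −0.30 ± 0.12 (adjusted p = 0.0613, edgeR). Rps19 was at 589, 595 and 441 CPM in WT against 448, 459 and 440 CPM in KO, where WT 3 lay within the KO range (−0.27 ± 0.13, adjusted p = 0.121, and 0.00851 without WT 3, edgeR). The particle partners thus differed in their calls, and the difference between them was not tested.

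Other called genes fell by less. They included Rpl6 (−0.65 ± 0.12), Rpl7a (−0.58 ± 0.12), Rpl37a (−0.53 ± 0.12) and Rpl27 (−0.46 ± 0.11) of the large subunit, and Rps2 (−0.58 ± 0.12), Rps18 (−0.52 ± 0.13), Fau (−0.47 ± 0.11) and Rps13 (−0.42 ± 0.10) of the small subunit. Fau encodes Rps30 fused to a ubiquitin-like protein. Of the 16 called genes, Rpl13, Rpl34, Rpl29, Rpl11 and Rpl10l kept the call whichever library was left out. Rpl8 and Rpl6 lost it without KO 3 (adjusted p = 0.0122 and 0.0113, edgeR), and the other 9 lost it without at least 3 different libraries, at adjusted p of up to 0.0463 (edgeR).

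The acidic P-stalk of Rplp0, Rplp1 and Rplp2 recruits elongation factors to the large subunit. Rplp0 was at 1777, 1516 and 1620 CPM in WT against 1272, 1066 and 1259 CPM in KO, which did not overlap. Its log2 fold change was −0.45 ± 0.13 (adjusted p = 0.0181, edgeR), and with the replicate block it was called (adjusted p = 0.00194). Rplp1 was at 1517 to 1836 CPM in WT against 1258 to 1460 CPM in KO (−0.33 ± 0.13, adjusted p = 0.0623, edgeR). Rplp2 was at 655 to 850 CPM in WT against 504 to 679 CPM in KO, which overlapped (−0.34 ± 0.15, adjusted p = 0.0930, and 0.00849 with the block, edgeR). Per length of mRNA, Rplp1 had the highest level of the 81 genes in WT, 3449 ± 355 RPKM (CPM divided by the mRNA length in kilobases, SD, n = 3). Rps12 followed with 2427 ± 376 and Rpl4 with 2012 ± 234 RPKM.

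Rpl10l, an intronless duplicate of the X-linked Rpl10, was the only one of the 81 genes to be called higher. It had 454, 502 and 735 counts in WT against 4719, 4601 and 5475 in KO. In CPM the WT libraries were at 21.4, 19.1 and 34.7 and the KO libraries at 188, 155 and 202, far above them. The mean was 25.1 ± 8.43 CPM in WT against 182 ± 24.1 CPM in KO, a fold change of 7.26 (log2 2.86 ± 0.21, adjusted p = 1.20e-05, edgeR). Rpl10l lies at chr12:66283379-66284401 on the minus strand, and no other tested gene lay within 1 Mb of it. 12.1% of its 84-base windows, the read length, occur identically elsewhere in GRCm38, and it had no m6A site in any list. Rpl10 itself was at 446, 476 and 393 CPM in WT against 360, 362 and 345 CPM in KO (−0.30 ± 0.11, adjusted p = 0.0474, edgeR), so per length Rpl10l rose from 24.5 to 178 RPKM while Rpl10 had 513 in WT and 416 in KO.

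The other duplicates did not pass the test. Rpl3l had 36, 60 and 69 counts in WT against 71, 110 and 92 in KO, with overlapping levels (0.46 ± 0.28, adjusted p = 0.203, edgeR), and Rpl3 was at 1326 to 1585 CPM in WT against 1028 to 1354 CPM in KO (−0.21 ± 0.15). Rpl39l was at 19.6 ± 3.97 CPM in WT against 19.9 ± 2.00 CPM in KO (0.020 ± 0.16), and the X-linked Rpl39 at 320 ± 34.2 and 327 ± 71.4 CPM (0.030 ± 0.16), and the sign of each turned when single libraries were left out. Rps27l, a p53 target, was at 160 ± 8.42 CPM in WT against 140 ± 22.0 CPM in KO (−0.20 ± 0.13), and Rps27 at 532 ± 68.1 and 460 ± 14.1 CPM (−0.21 ± 0.12). None of the 4 X-linked genes (Rpl10, Rpl36a, Rpl39, Rps4x) was called, and with the replicate block Rpl36a was (−0.38 ± 0.12, adjusted p = 0.0241, and 0.00706 with the block, edgeR).

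**Figure D5:**
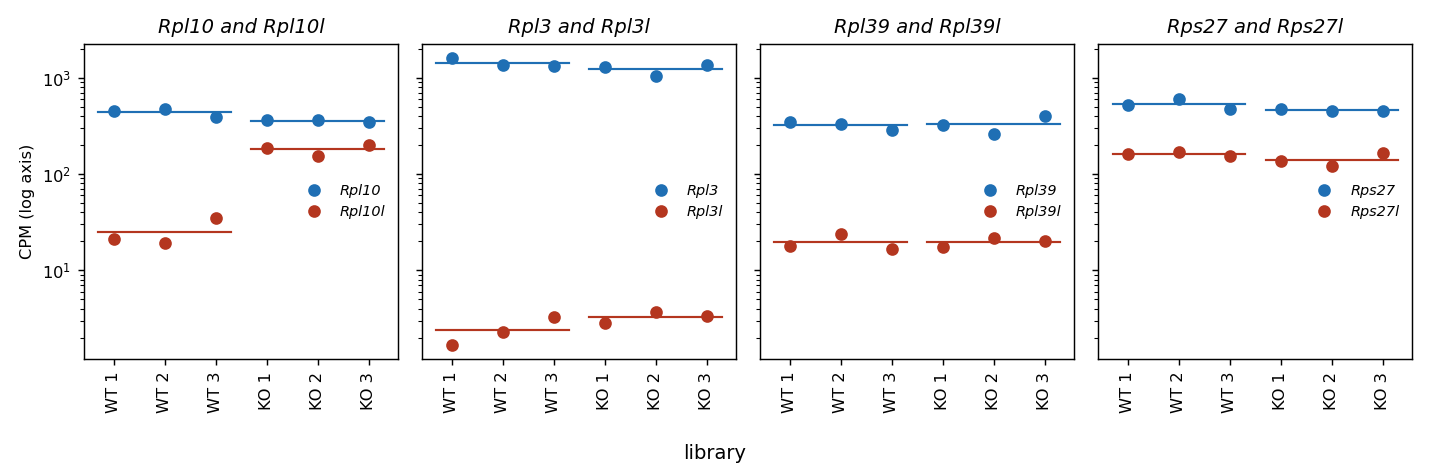
CPM on a log axis (vertical) in each library (horizontal) for 4 ribosomal protein genes (blue) and their duplicates (red), with lines at the group means. Rpl10l is the pair member whose KO libraries (155 to 202 CPM) lie far above its WT libraries (19.1 to 34.7 CPM).

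Among genes above 0, Rpl31 and Rpl13a had KO libraries that were all above the WT libraries. Rpl31 was at 504, 476 and 414 CPM in WT against 587, 532 and 625 CPM in KO (0.32 ± 0.12, adjusted p = 0.0495, edgeR). Rpl13a was at 234, 196 and 186 CPM in WT against 278.7, 235.4 and 255.6 CPM in KO (0.32 ± 0.12, adjusted p = 0.0515, edgeR), and with the replicate block it was called (adjusted p = 0.00884). Rpl13a shares exon sequence on its strand with the gene Gm45713, so reads that fit both could not be assigned to it. Rpl41 was at 323 to 392 CPM in WT against 386 to 426 CPM in KO, which overlapped (0.17 ± 0.11).

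A few levels may have been limited by how reads were counted, which was not tested. Rps10 had 542, 234 and 156 counts in WT against 152, 119 and 147 in KO, and Rpl24 had between 13 and 23 in all libraries. Both share exons with a readthrough or overlapping gene (RPS10-NUDT3 and Gm28037). Rps10 had the lowest log2 fold change of the 81 genes, −1.43 ± 0.42, but WT 1 stood apart from WT 2 and WT 3 and it was not called (adjusted p = 0.0176, edgeR). With the block it was called (adjusted p = 0.000211), without WT 2 or WT 3 it was also called (adjusted p = 0.00806 and 0.00299, edgeR), and without WT 1 the value was −0.66. Rps10 and Rpl24 were named after their values were seen.

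Ribosomal protein genes have many processed pseudogenes, and reads that map to several places were not counted. A median of 42.2% of the 84-base windows of these mRNAs occurred identically elsewhere in GRCm38, from 0% in 4 genes to 94.5% in Rps6. The 27 genes with over 50% of such windows had a median log2 fold change of −0.38, with all 27 below 0 and 9 called lower, and the 54 others had −0.30, with 47 below 0 and 6 called lower. High shares were also present in Rpl23a (94.1%) and Rpl36a (92.0%), and reads from such windows are missing from their counts. Whether lost reads bear on the fold changes was not tested. Nor was it tested for the predicted sites, for which the authors likewise kept only uniquely mapping reads.

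Genes with and without a predicted m6A site in mESCs had similar median fold changes, and the difference was not tested. The 26 with a site had a median of −0.32, with 22 below 0 and 4 (15.4%) called lower. The 55 without a site had a median of −0.32, with 52 below 0 and 11 (20%) called lower, beside 12.6% of all genes. Their median WT levels were 623 and 502 CPM and their median mRNA lengths 987 and 906 nt. Rpl11 and Rpl6 had sites and fell, Rpl13 and Rpl34 had none and fell, and Rpl10l had none and rose.

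Genes close to this family by function were mixed. In the 6 lists below between 22.2% and 34.5% of the genes tested were called, beside 29.7% of all genes. With the replicate block 43.5% of all genes were called. Under the other settings below, the share of all genes is not given. Changed counts there cannot be read as particular to a list. Of 6 family genes outside the naming rule, 2 fell and none rose. Rpl22l1, the duplicate of Rpl22, had 3100, 4070 and 2625 counts in WT against 1807, 1825 and 2353 in KO, which did not overlap in CPM (−0.95 ± 0.14, adjusted p = 0.000503, edgeR), while Rpl22 itself had −0.075 ± 0.13. With the replicate block 3 of the 6 fell and 1 rose, and 1 was called without WT 1, KO 1, KO 2 or KO 3 (each left out singly).

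Of 29 other genes with TOP mRNAs, most of them translation factors, 10 fell and none rose, with 26 below 0 and a median of −0.33. The count was 6 under scaling by library size alone, 5 without WT 1, 4 without KO 1, 6 without KO 2 and 4 without KO 3. The shares of all genes called in these fits are not given here. Vim, an intermediate filament gene whose mRNA has a TOP element, fell from 113 ± 23.5 to 19.8 ± 4.10 CPM (−2.52 ± 0.19, adjusted p = 1.20e-05, edgeR). Pabpc1, the poly(A)-binding protein, was at 2461 ± 372 and 1469 ± 161 CPM (−0.74 ± 0.16, adjusted p = 0.00322, edgeR), and it lost the call without WT 1, KO 1 or KO 3 (adjusted p = 0.0187, 0.0225 and 0.0217, edgeR). At the starts given in RefSeq (GRCm38), 14 of 61 matched ribosomal protein genes (22.95%) began with C followed by 4 pyrimidines, against 2.85% of 10474 other protein-coding genes tested. With 5 pyrimidines in a row over the start the shares were 34.4% and 11.2%. Annotated starts were used and no start was measured here.

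Of 58 ribosome assembly factors 8 rose and 10 fell (median −0.085), and without KO 1 the numbers were 5 and 3, with Bysl, needed for the small subunit, at 1.19 ± 0.17 (adjusted p = 0.000334, edgeR) and Grwd1, which handles Rpl3, at 0.98 ± 0.19 (adjusted p = 0.00196, and 0.0132 without WT 1, edgeR). Of 22 genes of RNA polymerase I and its factors 3 rose and 3 fell (median −0.12), and with the block 5 rose and 5 fell. Polr1b had 1.11 ± 0.12 (adjusted p = 7.74e-05, edgeR) and Twistnb 0.90 ± 0.12. Of 18 regulators of TOP mRNAs 2 rose and 2 fell (median −0.18), and 1 rose and 1 fell without WT 1 or without KO 1, with the mTOR inhibitor Deptor at −0.95 ± 0.10 (adjusted p = 9.05e-05, edgeR) and Mycn at 0.66 ± 0.11.

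The 75 mitochondrial ribosomal protein genes had the opposite order to the cytosolic set. 20 of them rose and 4 fell, 26 were below 0, and the median was 0.20. Mrpl46 was at 22.7 ± 7.68 CPM in WT against 70.3 ± 11.3 CPM in KO (1.63 ± 0.22, adjusted p = 0.000247, edgeR), and Mrpl43 at 35.1 ± 4.33 and 99.7 ± 2.95 CPM (1.51 ± 0.12, adjusted p = 1.24e-05, edgeR). Without WT 1 the numbers were 12 and 3, and without KO 1 they were 12 and 0. Under scaling by library size alone 27 rose and none fell, and over all 6 lists the split of 33 higher and 31 lower became 42 and 15. The difference between the 2 families was not tested. The 36 tested ribosomal protein pseudogenes named with -ps held 0.0139% of WT gene counts and 0.0130% of those in KO, with 3 called higher and 1 lower.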

How the data were processed

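Counts per gene were used as deposited by the authors, who mapped 84-nt single-end reads to GRCm38 with STAR 2.6.1b and counted unique alignments on the reverse strand with HTSeq 0.12.4. They are not normalised. The score of the mESC and HEK293T sites is the m6Aboost prediction, a fraction that the authors computed for peaks at an A after joining the replicates. The score deposited with the heart lists has no stated scale. Sample titles give the lower heart inputs in µg and the file names and methods in ng, which was used. Lines that name no gene (18.9% to 22.6% of reads without a feature in WT and 17.6% to 18.2% in KO, 13.9% to 15.2% not unique, 3.76% to 4.67% not aligned and 0.813% to 0.988% ambiguous) were left out.

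Genes were tested with edgeR 4.0.16 in R 4.3.3 (filterByExpr, TMM, glmQLFit, glmQLFTest, no covariates) with the Benjamini-Hochberg adjustment taken over 15731 genes and calls at an adjusted p of at most 0.01. DESeq2 1.42.0 was an alternative. Same-numbered WT and KO libraries deviated together (Pearson r over genes of 0.122, 0.464 and 0.303), while unlike-numbered ones ranged from −0.342 to 0.110. The highest of these, WT 3 with KO 1, was close to the value of replicate 1, where pairing is therefore weakly supported. The numbers were taken to pair the libraries in the blocked fit and in the paired share, and the main fit has no block. RPKM used the longest coding transcript in GENCODE M21. Sites were placed on M21 or, for human, GENCODE 44, with motifs read from the genome, and the authors' mouse release was later. 98.1% of counted genes had an entry. Python 3.11.15, SciPy 1.17.1 and Matplotlib 3.10.9 were used.

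The members and lists were chosen with earlier results of these data known. Named genes are members with sites, the 10 highest and 10 lowest called, the 3 at the highest RPKM, the P-stalk, duplicates with their parents, Rps19, Rpl5, Rpl11, and the 2 largest called changes of each list. Some genes of that rule are not reported here. The miCLIP2 libraries of KO cells were not used here. The study reports read numbers of its miCLIP2 libraries, and neither sites nor shares were scaled by them here.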

Additional observations from a re-analysis of the deposited data

How the results depend on the processing

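The median log2 fold change of the 81 genes stayed negative in every alternative run, between −0.39 and −0.26 when single libraries were left out. It was −0.23 under scaling by library size alone, where the median of all genes moved from −0.017 to 0.085. The number of called genes was less firm. Against 16, it was 7 under library size alone, 35 with the replicate block and 39 at an adjusted p of 0.05, and it ran from 5 to 33 when single libraries were left out. The causes were not tested. DESeq2 called 24, of which 23 fell. Of all genes, 29.7% were called in the main fit and 43.5% with the block. Their shares under the other settings are not given here, so these changes cannot be read as particular to the 81 genes. All 16 called genes were also called with the block. Among the 49 genes named with fold changes it changed no call other than those of Mettl3, Rplp0, Rplp2, Rpl13a and Rps10, which stand above with that of Rpl36a. Of listed pathway genes 64 were called, and 31 to 74 without single libraries, again without the shares of all genes beside them. Rpl39l ranged from −0.080 (without WT 3) to 0.19 and was negative also without WT 1 (−0.048) or KO 2 (−0.041). Rpl39 ranged from −0.13 (without KO 3) to 0.18 and was negative also without WT 3 (−0.052). Rpl22 was at 0.016 under library size alone. The mean difference in the share of gene counts kept its direction throughout, from −1.27 to −0.308 without single libraries. By replicate number the differences were −0.775, −1.62 and 0.044, so replicate 3 went the other way. An exact sign-flip test over these pairs gave p = 0.5, where 0.25 is the smallest.

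With the higher-scoring part of each list, sites were left in 13 genes in mESCs, 7 in heart and 14 in HEK293T (16.05%, 8.64% and 17.07%, against 23.31%, 27.63% and 29.67% of other protein-coding genes, a comparison added after seeing the data), and the 300 ng heart list gave 9. DRACH sites only, introns included, and leaving out sites on shared exons stayed within 1.5 times. Over the union of exons the mESC density was 0.244 sites per 1000 nt, against 0.460 in the longest coding transcript. The lists hold 1 call per site, do not state a read depth at it and allow no error on it. An absent site is one not detected.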
